A study of Mus musculus with 34 samples.

Results

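A-443654, an inhibitor of the protein kinase AKT, was compared with DMSO in N2A cells, a mouse neuroblastoma line. The comparison used 1 treated library and the 3 DMSO libraries labelled A, B and C, 4 of the 34 libraries of the series. Members were all splicing events and genes measured in these libraries, and of 401633 events in the splicing table, 198299 passed the coverage filters and were tested. All 4 samples received polyA+ RNA-seq with an unstranded library kit, and all were in 0.4% DMSO for 24 h. The treated cells had 0.25 µM A-443654, and the control cells had the solvent alone. Because there was 1 treated library, no difference had a replicate check, and no p-value is given for the treatment. The study states fewer biological replicates of the DMSO control than the 3 labelled libraries. The sources used here do not say which of the labelled libraries these are, so part of their spread may be technical. N2A is a single tumour line, and of 24 neuroblast markers, 19 were above 5 RPKM, whereas none of the fibroblast, glia or blood cell markers was.

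AKT is a serine/threonine kinase activated below receptor tyrosine kinases through phosphoinositide 3-kinase, and it controls growth, metabolism and the FOXO transcription factors. Splicing is itself under kinase control: the CDC-like kinases (CLK1 to CLK4) phosphorylate SR proteins, which bind exons and recruit the spliceosome, and the CLK transcripts carry an alternative exon and detained introns whose splicing sets how much full-length kinase is made. Microexons are very short exons, most of them included in neurons under the SR-related protein Srrm4, and they change short stretches of protein surface.

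The exons on which the results turn are shown first. The CLK exons held the largest exon rise and were almost fully included after treatment, and their sequences are given because the 4 genes are paralogues. Each line holds the exon in capitals with 12 bases of the neighbouring exons in lower case, on the transcribed strand, as in GENCODE vM21 transcripts.
Clk1 (91 nt): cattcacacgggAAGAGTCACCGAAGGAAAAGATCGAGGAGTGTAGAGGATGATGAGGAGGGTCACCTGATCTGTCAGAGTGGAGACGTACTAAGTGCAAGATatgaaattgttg
Clk4 (91 nt): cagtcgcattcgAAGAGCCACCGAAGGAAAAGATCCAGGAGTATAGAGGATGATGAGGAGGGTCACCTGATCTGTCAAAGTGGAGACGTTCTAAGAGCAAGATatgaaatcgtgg
Clk2 (85 nt): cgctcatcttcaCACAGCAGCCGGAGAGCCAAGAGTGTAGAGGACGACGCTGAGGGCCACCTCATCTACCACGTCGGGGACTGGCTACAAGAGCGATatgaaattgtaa
Clk3 (97 nt): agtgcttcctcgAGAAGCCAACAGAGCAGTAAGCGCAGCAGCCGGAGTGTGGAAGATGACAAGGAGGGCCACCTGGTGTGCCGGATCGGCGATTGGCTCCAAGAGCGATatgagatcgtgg
The Clk1 and Clk4 exons shared 85 of 91 bases (93.4%), and the Clk2 and Clk3 exons 58 of 85 (68.2%). None of the 4 lengths is a multiple of 3. In mm9 these exons lie at chr1:58476965-58477055 (Clk1), chr3:88973540-88973624 (Clk2), chr9:57606434-57606530 (Clk3) and chr11:51086580-51086670 (Clk4).

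Microexons from among those with the largest rise, where a transcript matched, and the 1 with the largest fall (Ncor1), are shown in the same way, with the microexon in capitals. Shank2, also among the largest rises, was not included in this choice.
Pacsin2 (6 nt): ccacagtttgagGATGAAgagtggtctgca
Lphn2 (12 nt): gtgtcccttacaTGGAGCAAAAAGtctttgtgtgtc
Rapgef6 (15 nt): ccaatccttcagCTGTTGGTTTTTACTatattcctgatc
Col4a1 (17 nt): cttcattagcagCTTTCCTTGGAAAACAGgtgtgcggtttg
Mast2 (21 nt): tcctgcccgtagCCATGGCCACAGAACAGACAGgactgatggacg
Picalm (24 nt): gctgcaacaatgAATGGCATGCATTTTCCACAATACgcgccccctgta
Snx14 (27 nt): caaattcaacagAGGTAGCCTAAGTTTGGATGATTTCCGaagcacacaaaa
Cdk5rap2 (27 nt): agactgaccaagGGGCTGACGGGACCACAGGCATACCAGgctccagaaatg
Ncor1 (27 nt): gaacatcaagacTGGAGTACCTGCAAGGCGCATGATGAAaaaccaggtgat
The cassette exon with the largest fall was that of Ap1ar, which codes for an adaptor of the AP-1 coat.
Ap1ar (99 nt): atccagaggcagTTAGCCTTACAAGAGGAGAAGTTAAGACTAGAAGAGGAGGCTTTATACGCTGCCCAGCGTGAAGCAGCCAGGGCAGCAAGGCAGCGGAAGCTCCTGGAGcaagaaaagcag

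In the treated library, short exons were included more, exons of middle length were skipped more, and the CLK exons were included almost completely. Inclusion was measured as percent spliced in (PSI), the share of junction reads, corrected for mappability, that include the exon, and for introns as the share of retention. Events were called increased or decreased if PSI departed from the mean of the DMSO libraries by 10 or more and the posterior probability of that direction, computed from the reads, exceeded 0.95. Such a call compares these libraries, not the treatments. By this rule, 63 of 604 microexons (3 to 27 nt) were increased (10.4%) and 3 were decreased (0.497%). When each DMSO library was compared with the other DMSO libraries, 1.42% (A), 1.25% (B) and 0.849% (C) of microexons were increased and 1.42%, 0.939% and 1.36% decreased. Of 57549 cassette exons over 27 nt, 301 were increased (0.523%) and 835 decreased (1.45%), against 0.32%, 0.357% and 0.303% increased and 0.402%, 0.405% and 0.531% decreased for DMSO A, B and C. With 1 DMSO library left out, so that 2 controls stood on the other side as for the DMSO libraries, 10.4% to 11.6% of microexons and 0.625% to 0.669% of cassette exons were increased, and 0.49% to 1.12% and 1.56% to 1.59% were decreased. Exon junction reads summed to 56710012 in the treated library and to between 37427026 and 75978445 in the DMSO libraries, with DMSO C the shallowest.

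The CLK genes gave the largest exon rise of the comparison. The 91-nt exon of Clk4 had a PSI of 48.2, 43.5 and 42.5 in DMSO A, B and C and of 99.8 after A-443654 (95% Wilson interval 99.46 to 99.96, counting error only, 1351 reads), a rise of 55.1. The other 30 libraries of the series lay between 33.1 and 68.2 for this exon, so that the treated library stood above all 33 others. The matching exon of Clk1 had 80.7, 83.4 and 78.3 in DMSO and 99.9 after A-443654. That of Clk3 had 87.5, 89.6 and 89.95 in DMSO and 99.9 after treatment. For Clk1 and Clk3 the treated value was likewise the highest of the 34 libraries. The Clk2 exon had 87.2, 88.8 and 79.3 in DMSO and 95.4 after treatment, which was above the DMSO range but only the fourth highest value of the 34 libraries.

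Retention of 3 introns beside the Clk1 and Clk4 exons was lower in the treated library. The 1055-nt intron on 1 side of the Clk4 exon was retained at 20.7%, 13.4% and 11.1% in DMSO and at 1.28% after treatment, and the 391-nt intron on the other side at 19.3%, 14.1% and 20.6% in DMSO and at 1.34%. The 387-nt intron of Clk1 was at 11.2%, 15.8% and 15.5% in DMSO and at 0.68%. For these 3 introns the treated library was the lowest of all that passed the filters. Of 11 introns tested in Clk3, 3 differed from DMSO by 5 percentage points or more (-7.24, -6.99 and -5.08), each under the limit of the call, and the others by less. Over the 4 CLK genes, 43 introns and 32 exons were tested, of which 3 introns and 5 exons were called. A 59-nt exon of Clk4 went the other way from its 91-nt exon, with 25.3, 24.2 and 21.2 PSI in DMSO and 3.55 after A-443654.

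Expression of these kinases is available as 1 value per condition, for which the replicates had been merged. Clk1 was at 32.2 RPKM (reads scaled to transcript length and library size) in DMSO and 68.8 after A-443654, a log2 ratio of 1.08 with a pseudocount of 0.5. Clk3 went from 38.9 to 79.6 RPKM (1.02) and Clk4 from 44.1 to 78.6 RPKM (0.83, under the 2-fold limit). Each of these was the highest value of the 28 conditions. Clk2 was at 19.4 and 16.9 RPKM (-0.19). Among 28 SR proteins and SR kinases above 5 RPKM, Clk1 and Clk3 were the 2 that passed a 2-fold change, and the median log2 ratio was -0.09, beside -0.04 over all 9674 genes above 5 RPKM. Srpk1, another SR protein kinase, was at 107 and 124 RPKM (0.21).

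Inclusion depended on exon length at both ends of the range. Among exons with 10 to 90 PSI in DMSO, 24 of 66 microexons of up to 15 nt were increased (36.4%) and 2 decreased, and of 98 microexons of 16 to 27 nt, 33 were increased (33.7%) and 1 decreased. Of 265 exons of 28 to 50 nt, 46 were increased (17.4%) and 23 decreased. For exons of 51 to 100 nt the order turned, with 66 of 1076 increased (6.13%) and 194 decreased (18%), and of 1183 exons of over 100 and up to 200 nt, 8.54% were increased and 189 decreased (16%). Exons of over 200 and up to 500 nt again had more increased than decreased, 38 and 15 of 203, and of 52 exons over 500 nt, 15 were increased (28.8%) and 1 decreased. The median difference followed the calls, at 6.89 and 8.06 PSI in the 2 microexon bins, -2.56 and -2.01 PSI in the 2 bins from 51 to 200 nt, and 6.78 PSI over 500 nt. In the same bins each DMSO library against the others had 2.27% to 8.47% increased and 0% to 6.45% decreased, with medians between -1.05 and 2.3 PSI.

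**Figure D1:**
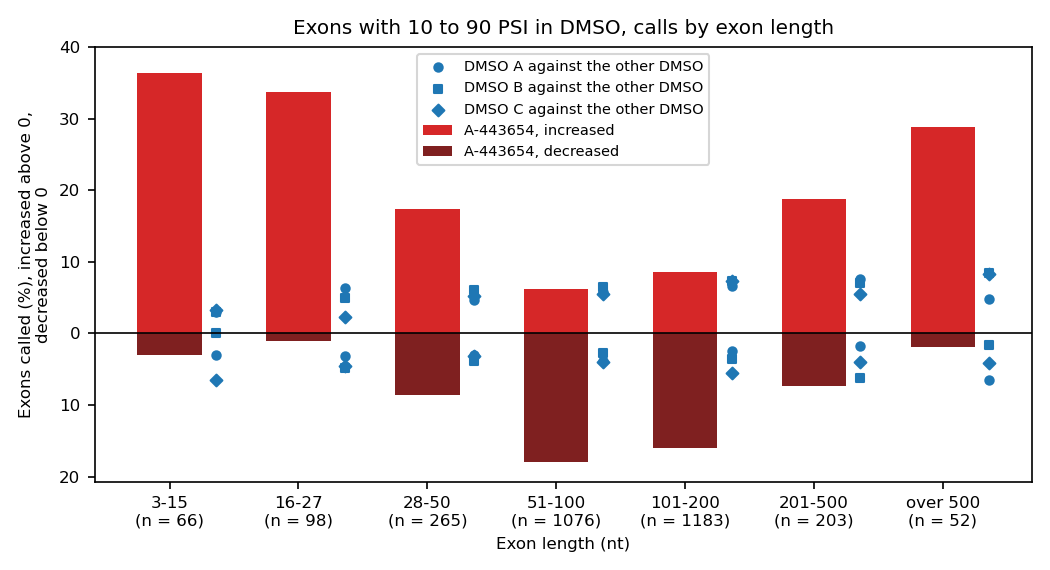
Percent of exons called increased (above 0) or decreased (below 0) by exon length in nt, for exons with 10 to 90 PSI in DMSO. Bars are A-443654 against the 3 DMSO libraries (bright red increased, dark red decreased), n is the number of exons, and blue symbols are each DMSO library against the other DMSO libraries. The bars for increased exons are tallest at up to 27 nt and over 500 nt, and those for decreased exons at 51 to 200 nt.

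The calls were also counted by starting level. Because a call needs 10 PSI, exons over 90 PSI could not be called increased, nor those under 10 PSI decreased. Of the 835 decreased cassette exons, 413 had at least 90 PSI in DMSO, out of 53122 such exons (0.777%), whereas the DMSO libraries had 0.25% to 0.34% decreased in this class. Their median difference was -13.0 PSI, and their median depth in the treated library was 140 reads, against 326 for all exons of this level. In the class from 50 to 90 PSI, 328 of 1855 were decreased (17.7%) and 145 increased (7.82%), while the DMSO libraries had 3.44% to 5.46% and 7.52% to 8.5%. From 10 to 50 PSI, 121 of 924 were increased (13.1%) and 94 decreased (10.2%). The DMSO libraries had 2.8% to 3.7% increased and 2.3% to 2.91% decreased in this class. Under 10 PSI, 35 of 1648 were increased (2.12%), against 0.155% to 0.311% for the DMSO libraries. The share of exons whose length is a multiple of 3 was 51.6% among the 2779 cassette exons of 10 to 90 PSI, 55.6% among those increased and 50.7% among those decreased.

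Averaged over the 143 microexons of 10 to 90 PSI that passed in all 4 libraries, inclusion was 49.4%, 48.8% and 49.1% in DMSO and 57.4% after A-443654. Over 2523 cassette exons of the same range it was 61.6%, 61.5% and 61.2% in DMSO and 59.7% after treatment. For both classes the treated mean lay outside the narrow range of the DMSO libraries. Of exons matched to a transcript sequence, increased cassette exons of 10 to 90 PSI had a median purine content of 53.8% (244 exons, quartiles 49.6% and 57.6%), decreased ones of 50.7% (403 exons, quartiles 45.4% and 57.1%) and all tested ones of 51.9% (2570 exons). Their median GC contents were 49.12%, 50.98% and 50.56%, with quartiles that overlapped widely.

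Rapgef6 codes for an exchange factor of the GTPase Rap, and its 15-nt microexon (chr11:54465251-54465265, mm9) had 18.4, 24.4 and 21.2 PSI in DMSO A, B and C and 62.9 after A-443654 (54.7 to 71.1, 128 reads). Only 1 other library of the series was higher. The 17-nt microexon of Col4a1, a basement membrane collagen (chr8:11204536-11204552), had 20.1, 22.1 and 26.5 in DMSO and 63.2 after treatment, where the other compounds reached 37.1 at most.

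Pacsin2 and Picalm serve endocytosis. The 6-nt microexon of Pacsin2 (chr15:83214053-83214058) had 37.5, 34.6 and 40.5 in DMSO and 72.8 after A-443654 (70.7 to 74.9, 1705 reads). The 24-nt microexon of Picalm, a clathrin adaptor (chr7:97342783-97342806), had 30.5, 34.6 and 33.6 in DMSO and 61.5 after treatment (59.2 to 63.7, 1820 reads). These were the best covered of the named increased microexons, and in each the treated library was the highest of the 34.

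The 27-nt microexon of Snx14, a sorting nexin, had 51.6, 46.9 and 42.4 in DMSO and 80.2 after treatment. Mast2, a microtubule-associated kinase, had 47.0, 48.9 and 33.3 in DMSO and 72.6 after treatment for its 21-nt microexon, the highest of the 34 libraries. Cdk5rap2, a centrosome protein, had 32.3, 25.98 and 28.1 in DMSO and 58.3 for a 27-nt microexon. None of these treated values overlapped the DMSO range, as the rule for naming required. Lphn2, an adhesion receptor of the latrophilin family, had 16.9, 15.1 and 18.5 in DMSO and 45.3 for a 12-nt microexon. Cdon, a co-receptor of hedgehog signalling, had 62.0, 60.8 and 79.8 in DMSO and 97.2, and Shank2, a postsynaptic scaffold, had 58.3, 64.1 and 37.6 and 82.4. The last 2 rested on 43 reads each in the treated library, and their DMSO libraries varied by SDs of 10.6 and 13.9.

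The 63 increased microexons lay in 63 genes, 57 had a length that is a multiple of 3, and 27 were of up to 15 nt. These traits did not set them apart. Among microexons of 10 to 90 PSI in DMSO, 89.5% of those increased and 90.9% of the 164 tested had a multiple of 3. Of all 604 tested microexons, 315 were of up to 15 nt. Their differences ran from 10.5 to 41.6 PSI with a median of 19.2, and for 22 of them the treated library had the highest PSI of all libraries that passed. Outside the calls, 23 microexons had a difference of 8 to 10 PSI upward and 4 downward. The 3 decreased microexons were in Ncor1, Vps29 and Prune2. Ncor1, a nuclear receptor corepressor, had 54.6, 55.9 and 55.5 PSI in DMSO for its 27-nt microexon (chr11:62216938-62216964) and 28.03 after A-443654 (25.2 to 31.1, 883 reads), below the 44.9 to 67.7 of the other compounds. Vps29, a retromer subunit, had 53.5, 54.2 and 55.4 and then 42.1 for a 12-nt microexon, a value that 7 libraries undercut. Prune2 had 13.3, 9.49 and 13.7 and then 0.94 for a 9-nt microexon.

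**Figure D2:**
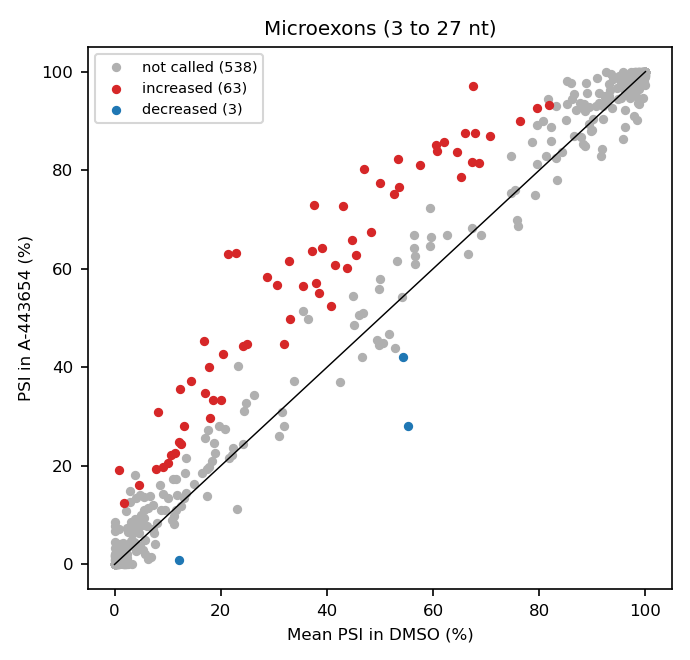
PSI of each tested microexon in percent, mean of DMSO (x axis) against A-443654 (y axis), with the line of equal values. Of 604 points, 63 were called increased (red) and 3 decreased (blue), and 57 of the 63 red points lie between 10 and 90 PSI in DMSO.

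The study assayed exons of 7 genes by RT-PCR. Of 8 short exons of these genes with 10 to 90 PSI in DMSO, 3 were called, those of Mast2 (above), Ergic3 and Zdhhc20. The 8 were chosen by PSI and length, and the sources used do not say which Mgrn1 and Asph exons were assayed. Asph and Trappc9 were assayed in the study for predicted inhibitors of splicing, not for predicted activators. The study chose compounds for RNA-seq by large effects on Srrm4-dependent microexons and by structural diversity. Calls in Mast2, Ergic3 and Zdhhc20, which it lists as Srrm4-dependent, are thus not independent of that choice. Ergic3, a cargo receptor between endoplasmic reticulum and Golgi, had 33.9, 39.8 and 42.0 in DMSO and 55.0 after A-443654 for its 15-nt microexon. Zdhhc20, a palmitoyltransferase, had 28.96, 41.4 and 31.3 and then 64.8 for a 36-nt exon. The 21-nt microexon of the transcription factor Mef2d was at 89.5, 88.7 and 88.7 in DMSO and 95.7 after treatment, outside the DMSO range but under the limit of the call. Trappc9, a vesicle tethering factor, had 29.7, 31.6 and 33.2 in DMSO and 30.9 for its 27-nt microexon, inside the DMSO range. Exons of Mgrn1 (45 nt) and Asph (45 and 48 nt) differed from the DMSO mean by 1.21 to 3.67 PSI, less than the SD of the DMSO libraries.

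Long exons formed the other included class. Over all levels of inclusion, 17 of 958 exons longer than 500 nt were increased (1.77%) and 2 decreased (0.209%). Nasp codes for a histone chaperone, and its 975-nt exon (chr4:116283008-116283982) had 36.8, 33.3 and 36.2 PSI in DMSO and 75.6 after A-443654 (74.4 to 76.8, 4938 reads), with 21.6 to 62.4 under the other compounds. The 2268-nt exon of Clip1, a protein of growing microtubule ends (chr5:124063077-124065344), had 9.89, 10.2 and 11.4 in DMSO and 47.4 after treatment, where no other compound passed 28.6. The 753-nt exon of Ankrd17, an ankyrin repeat protein, had 26.3, 28.7 and 26.5 and then 59.3. In each of these 3 the treated library was the highest of the series and the DMSO libraries lay within a few PSI of each other. March8, a membrane-bound ubiquitin ligase, went from 9.48, 13.4 and 15.1 to 47.3 for an 846-nt exon, and Stk35, a kinase, from 48.1, 47.5 and 53.7 to 77.5 for a 750-nt exon. The 711-nt exon of Mapt, which codes for tau, had 9.57, 8.86 and 9.4 in DMSO and 22.9 after treatment, a value that 7 libraries passed. The 2 long exons that decreased were in Fut10 and 1200016B10Rik, by 12.9 and 12.3 PSI.

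Among the other cassette exons with the largest rises, Obsl1, an obscurin-like cytoskeletal protein, had 42.0, 37.3 and 22.3 in DMSO and 74.1 for a 115-nt exon. Spag9, a scaffold of JNK signalling, had 33.5, 35.7 and 36.4 and then 73.6 for a 39-nt exon, although 6 other libraries were higher. Inf2, a formin, had 21.9, 24.4 and 25.6 and then 62.3 for a 57-nt exon, on 56 reads. Pi16 (786 nt) and Plch1 (86 nt), the latter a phospholipase C, rose by 36.8 and 36.4 PSI, with SDs of 4.81 and 14.5 among the DMSO libraries.

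Of the skipped exons, the 99-nt exon of Ap1ar (chr3:127518514-127518612) moved the most, from 77.8, 74.5 and 73.7 PSI in DMSO to 31.6 after A-443654 (29.29 to 33.96, 1520 reads). The other compounds lay between 65.6 and 85.3. The 102-nt exon of Ccdc104 had 79.4, 70.1 and 72.3 in DMSO and 31.6 after treatment. Med25, a Mediator subunit, had 78.0, 85.5 and 65.2 and then 39.2 for a 72-nt exon. In these 3 genes the treated library was the lowest of the 34.

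Zfp346, a zinc finger protein, had 88.0, 75.7 and 73.6 in DMSO and 39.8 after treatment for a 142-nt exon. Zfp961 had 68.3, 66.3 and 61.5 and then 28.4 for a 61-nt exon. Zfp167 had no skipping read in any DMSO library for a 63-nt exon, where 56, 52 and 44 reads allow a skipped share of up to 5.36%, 5.77% and 6.82%, and was at 57.6 PSI after treatment, on 49 reads (43.27 to 69.98). Gm13154 likewise had no skipping read in DMSO. Sh2d5 (75 nt), BC024814 (41 nt), Gm13154 (44 nt) and Per3, a circadian clock gene (107 nt), fell by 39.4, 40.2, 36.5 and 36.01 PSI, each on 106 reads or fewer in the treated library.

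**Figure D3:**
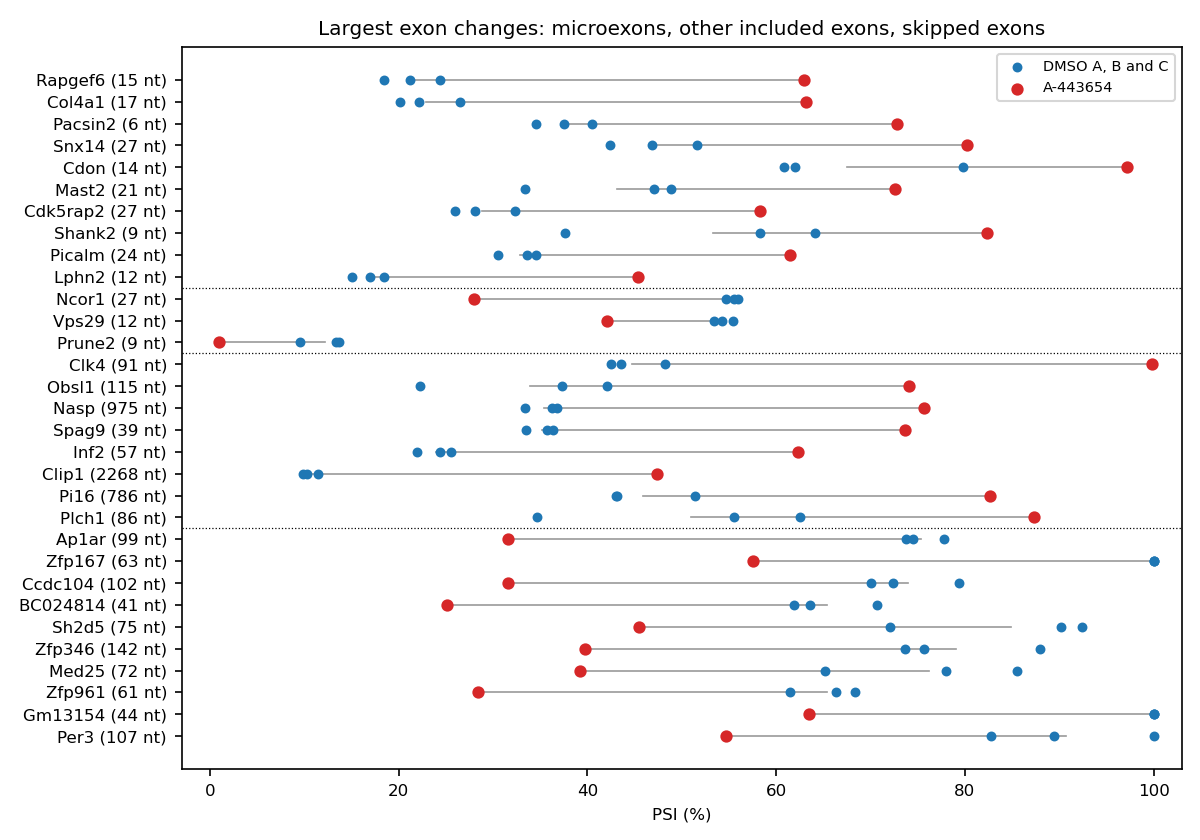
PSI in percent of the named exons in each DMSO library (blue) and after A-443654 (red), with exon length in nt beside the gene, in the order increased microexons, decreased microexons, increased cassette exons and decreased cassette exons. The grey line joins the DMSO mean to the treated value. Every red point lies outside the blue points of its row, as the rule for naming required.

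Some genes of splicing regulators had called exons of their own. The share of events called in such genes is given below beside that over all genes. Ptbp2, the neuronal polypyrimidine tract binding protein, had 83.2, 87.0 and 81.6 PSI in DMSO and 53.4 after A-443654 for its 34-nt exon (chr3:119427530-119427563), whose skipping shifts the reading frame. Its expression was 89.0 RPKM in DMSO and 50.6 RPKM after treatment, a log2 ratio of -0.81. Mbnl2, a muscleblind protein, had 74.4, 73.7 and 74.0 and then 53.6 for a 95-nt exon, the lowest of the 34 libraries. Hnrnpa2b1 had 66.8, 65.2 and 64.2 and then 47.7 for a 120-nt exon on 10289 reads, again the lowest, and Hnrnpd had 59.4, 58.3 and 62.6 and then 76.1 for a 57-nt exon, the highest. The last 2 are hnRNP proteins, and their log2 ratios of expression were -0.14 and -0.01.

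Elavl2, a neuronal RNA-binding protein, had 31.3, 35.4 and 29.1 in DMSO and 54.0 for a 39-nt exon, and Rbfox1 had 30.9, 39.8 and 23.9 and then 61.5 for a 53-nt exon, on 48 reads. In Srsf5, an SR protein, use of an alternative 5' splice site was 18.03%, 4.27% and 2.94% in DMSO and 30.1% after treatment, with DMSO A apart from the other DMSO libraries. Of 521 events tested in genes of SR proteins and their kinases, 12 were called (2.3%). The shares were 1.79% of 502 events in hnRNP genes, 1.19% of 337 in neural splicing regulators, 0.105% of 953 in core spliceosome genes and 1.29% of 198299 over all genes, where alternative sites of 1 exon count separately. Of the 12 events in SR proteins and kinases, 8 were in Clk1 to Clk4 and the other 4 in Srsf4, Srsf5 and Srsf7. The share for SR proteins and kinases thus rested mostly on the CLK genes. The shares for hnRNP genes and neural splicing regulators were near that over all genes. The 3 called CLK introns adjoin called CLK exons, so these calls are not independent.

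Intron retention moved less than exon inclusion. Of 87252 introns, 228 were increased (0.261%) and 119 decreased (0.136%), against 0.128%, 0.165% and 0.256% increased and 0.182%, 0.13% and 0.0805% decreased for DMSO A, B and C against the others. The increased share was thus close to that of DMSO C, and the decreased share lay within the DMSO values. With 2 controls instead of 3, the shares after A-443654 were 0.308% to 0.332% and 0.213% to 0.242%, above those ranges. Mean retention over introns that passed in all 4 libraries was 0.95%, 0.94% and 0.94% in DMSO and 1.0% after treatment. Over the 1141 of these with 10% to 90% retention in DMSO it went the other way. It was 21.4%, 21.5% and 22.3% in DMSO and 20.3% after treatment, below the DMSO range. Among the 23 compounds with 1 library, A-443654 ranked 11th for increased and 2nd for decreased introns. Called introns were short in both directions, with medians of 429 nt for those increased and 511 nt for those decreased, beside 1278 nt for all tested. Of all tested introns, 85536 had under 10% retention in DMSO. Lengths were not compared with introns of similar retention or with those called between DMSO libraries, so a link of length with treatment was not tested.

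Of the introns that rose, Eral1, which codes for a GTPase of the mitochondrial ribosome, had 15.2%, 17.8% and 21.1% retention in DMSO and 55.1% after A-443654 (121 reads). Pigq, an enzyme of GPI anchor synthesis, had 9.29%, 9.92% and 10.96% and then 44.7% for a 100-nt intron, and 1600027N09Rik had 28.7%, 37.0% and 34.1% and then 68.1%. Gltscr1, Rassf7 and Man2b1, a lysosomal mannosidase, rose by 46.8, 33.5 and 38.6 percentage points on 21, 53 and 68 reads. Map3k11 and Camk2a rose by 36.03 and 35.97, on 25 and 16 reads and with SDs of 23.2 and 8.39 among the DMSO libraries. Of the introns that fell, that of the kinase gene Braf (99 nt) had 52.2%, 68.2% and 66.9% in DMSO and 30.8% after treatment, the lowest of the series. Bsg, Scn8a and 4933439C10Rik fell by 44.2, 38.2 and 32.1 percentage points on 54, 17 and 39 reads, and the DMSO libraries of Bsg and 4933439C10Rik differed among themselves by SDs of 24.96 and 19.5.

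Several changes fell in 1 gene in some cases. Pigq had 6 called exons and introns: an 81-nt exon had 88.71, 93.13 and 93.06 PSI in DMSO and 60.57 after treatment, a 112-nt exon had 44.85, 42.58 and 49.98 and then 15.48, a 127-nt exon had 34.96, 34.81 and 42.62 and then 17.55, and 3 introns were retained more. Map4k2, a MAP kinase kinase kinase kinase, also had 6, with 4 introns retained more and 2 exons included less. Expression of Pigq was 44.3 RPKM in DMSO and 58.2 RPKM after treatment. In all, 1549 called exons and introns lay in 1284 genes, and 1067 of these genes had a single call.

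Alternative splice sites were called in 285 of 14028 groups of alternative 3' sites (2.03%) and in 256 of 10114 groups of alternative 5' sites (2.53%), against 1.31%, 1.2% and 1.27% of 3' groups and 1.65%, 1.72% and 1.45% of 5' groups for DMSO A, B and C. The largest shift was in Slc6a15, a transporter of neutral amino acids, in which use of an alternative 3' site was 35.6%, 30.5% and 31.2% in DMSO and 81.9% after A-443654 (544 reads), with 15.65% to 55.05% under the other compounds. Herc1, a giant ubiquitin ligase, had 43.5%, 45.7% and 41.3% and then 75.3%, and Gin1 had 20.02%, 20.1% and 20.9% and then 54.3%. Among 5' sites, Rbbp5, a subunit of histone H3K4 methyltransferases, had 24.5%, 35.8% and 34.7% and then 65.8%, and Dhx57, a helicase, had 20.5%, 6.54% and 12.8% and then 55.1%. Slc6a15, Herc1, Rbbp5 and Dhx57 were at the highest value of the 34 libraries. Lins, Cbx5 and Dennd2a rose by 31.7, 33.98 and 33.9 percentage points, with SDs of 9.92 to 10.2 among the DMSO libraries.

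In gene expression, 143 of 9674 genes above 5 RPKM were higher by more than 2-fold (1.48%) and 93 were lower (0.961%). With 236 genes in all, A-443654 ranked 18th of 27 compounds, whereas its share of increased microexons ranked 3rd. The compounds had been chosen for microexon effects, as stated above. Of the 143 and 93 genes, 55 and 54 carried names of clones, predicted genes, pseudogenes or small RNAs. Il6, an inflammatory cytokine, was at 2.7 RPKM in DMSO and 19.6 RPKM after treatment (log2 ratio 2.65), the highest of the 28 conditions. Ptgs1, which makes prostaglandin precursors, was at 20.02 and 85.98 RPKM (2.08), and Prkg2, a cGMP-dependent kinase, at 0.59 and 5.65 RPKM (2.50). In these 2 genes 3 conditions were higher. Ctla2b, Apol9a and Apol9b, members of gene families with close copies among which reads may be split, had log2 ratios of 2.36, 2.12 and 2.32. Platr26 and Platr27, noncoding RNAs, had 2.52 and 2.33, and Got1l1, Prokr1 and Tnfaip2 had 2.07, 2.03 and 2.002. Of the 12 genes named as the largest rises, which leave out clones and predicted genes, the top ratio (3.02) was that of mt-Tq, a mitochondrial tRNA, which polyA selection captures poorly.

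Among the genes that were lower, Rbm3, a cold-inducible RNA-binding protein, was at 1474 RPKM in DMSO and 516 RPKM after treatment (-1.51), and H1f0, a linker histone, at 228 and 68.2 RPKM (-1.73). Capn6, a calpain relative, was at 68.93 and 17.99 RPKM (-1.91), and Osgep, an enzyme of tRNA modification, at 30.2 and 9.82 RPKM (-1.57). For Osgep this was the lowest of the 28 conditions, while 1 or 2 conditions were lower for the others. The noncoding RNA Bc1 (-1.89), the imprinted gene Zdbf2 (-1.53), the growth factor gene Pgf (-1.66), Pdlim3 (-1.52), Pnpla3 (-1.67), Fam132a (-1.72), Riiad1 (-2.51) and Rnu73b (-1.58) completed the 12 with the largest falls. Of 61 genes that were higher and had a tested exon or intron, 12 also had a called one (19.7%), as had 4 of 27 that were lower (14.8%) and 1011 of 7590 genes above 5 RPKM (13.3%).

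The pathway that the compound targets changed little in gene expression. Of 27 AKT pathway genes above 5 RPKM, 1 was higher by more than 2-fold and none was lower, with a median log2 ratio of -0.05. Akt1 was at 92.1 and 89.1 RPKM and Akt2 at 40 and 38.65 RPKM in DMSO and after A-443654. The gene that passed was Deptor, an inhibitor of mTOR complexes, at 2.74 and 7.16 RPKM (1.24). Tsc2, a suppressor of mTOR, had the lowest ratio at 22.2 and 14.3 RPKM (-0.62), the lowest of the 28 conditions. Of 863 splicing events tested in AKT pathway genes, 6 were called (0.695%, against 1.29% over all genes), in Mtor, Tsc2, Pik3ca and Foxo4. Of 14 FOXO target genes none passed in either direction, with a median of 0.16, and Irs2, an adaptor of insulin receptors, was at 33.2 and 48.7 RPKM (0.54). Of 31 sterol and fatty acid synthesis genes none passed, with a median of 0.00.

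Target genes of ATF4, the transcription factor of the integrated stress response, were the list with the highest median. Of 28 above 5 RPKM, 5 were higher by more than 2-fold and none lower, 25 had a ratio above 0, and the median was 0.35. Trib3, a pseudokinase that binds AKT, was at 18.1 and 56.2 RPKM (1.61), Cth, an enzyme of cysteine synthesis, at 17.02 and 44.25 (1.35), and Slc7a11, the cystine transporter, at 4.84 and 11.2 (1.14). Stc2 (1.09) and Nupr1 (1.07) also passed, and Atf5 was lowest, at 20.6 and 10.5 RPKM (-0.94). Under NVP-AEW-541, an inhibitor of the IGF1 receptor at 1 µM, the median of this list was -0.52, and under Trametinib, an inhibitor of MEK at 1 µM, -0.29, each from 1 library against the same DMSO controls and each at another dose than the 0.25 µM of A-443654.

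Neural genes lay at the other end. The 19 neuroblast markers above 5 RPKM had a median of -0.42, with 17 below 0 and none past 2-fold, for example Gap43, a growth cone protein, at 174 and 112 RPKM (-0.63) and Dbh, which makes noradrenaline, at 11.4 and 5.48 RPKM (-0.99). The medians under NVP-AEW-541 and Trametinib were 0.40 and 0.39. Of 22 neural splicing regulators, Celf3 was lower by more than 2-fold, at 105 and 41.95 RPKM (-1.31), the median was -0.26 and 19 were below 0. Srrm4, which promotes microexon inclusion, was at 10.4 and 8.62 RPKM (-0.26), and its relative Srrm3 at 18.5 and 14.5 RPKM (-0.34). Each is 1 RNA value per condition, and a role of these factors in the microexon changes was not tested. RNA and protein can differ here: under Trametinib the paper reports more SRRM4 protein without a significant change of its mRNA. In bulk RNA, fewer cells of a type and less RNA per cell cannot be told apart.

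In the remaining lists few genes passed. Of 19 immediate early and MAPK feedback genes, the phosphatase gene Dusp6 was higher, at 22.01 and 44.8 RPKM (1.01), and the transcription factor gene Etv1 lower, at 19.9 and 8.50 RPKM (-1.18), with a median of 0.20, beside -1.23 under Trametinib. Of 12 p53 targets, Gdf15 passed (1.04). Dusp6 and Gdf15 were just under 2-fold with a pseudocount of 1 (0.993 and 0.98). None passed among 34 cell cycle and replication genes (median -0.07), 30 hnRNP genes (-0.07), 41 core spliceosome genes (-0.02), 20 ribosome biogenesis genes (0.13), 24 lysosome and autophagy genes (0.05), 18 glycolysis and hypoxia genes (-0.10), 12 P-TEFb and BET genes (0.08) or 8 CREB targets (0.19).

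**Figure D4:**
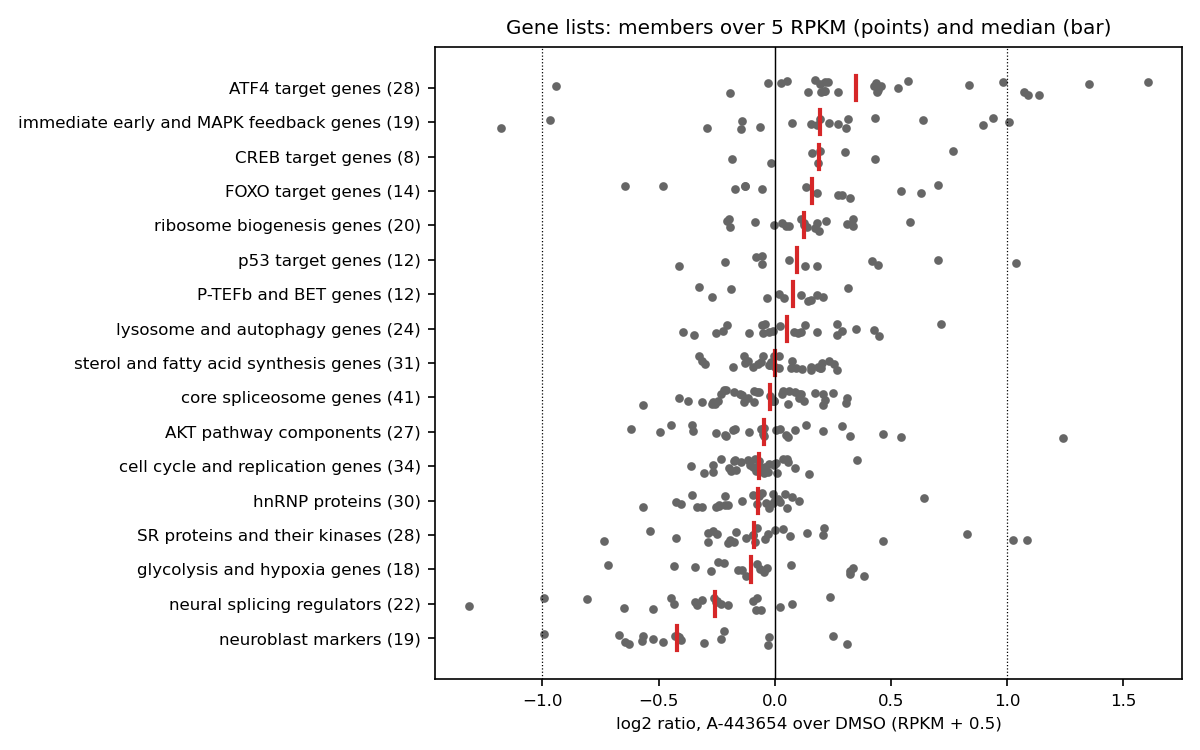
Log2 ratio of A-443654 over DMSO (RPKM plus 0.5) for each member above 5 RPKM of 17 gene lists, with the number of members beside the name, the median as a red bar and 2-fold limits as dotted lines. ATF4 targets have the highest median (0.35) and neuroblast markers the lowest (-0.42), and most members of every list lie within 2-fold.

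The IGF1 receptor lies above AKT, and MEK in a parallel branch, so their inhibitors give nearby values for the splicing calls. NVP-AEW-541 had 46 of 605 microexons increased (7.6%) and 2 decreased (0.331%), and Trametinib 51 of 621 increased (8.21%) and 4 decreased (0.644%). For cassette exons, NVP-AEW-541 had 313 increased (0.545%) and 200 decreased (0.348%) and Trametinib 236 (0.413%) and 148 (0.259%), whereas A-443654 had 301 and 835. Decreases made up 73.5% of the cassette calls of A-443654, 38.99% of those of NVP-AEW-541 and 38.5% of those of Trametinib, and 53.1% to 63.7% of those of the DMSO libraries. The Clk4 exon differed from DMSO by 13.8 PSI under NVP-AEW-541 and 3.99 under Trametinib, and the Nasp exon by 0.37 and -1.47. Over the 63 microexons increased by A-443654, where its median difference was 19.2 by selection, the medians were 7.63 under NVP-AEW-541 (60 measured) and 8.69 under Trametinib (61 measured). These comparisons share the DMSO libraries, doses differ, and with 1 library each the differences between compounds were not tested. Among the 23 compounds with 1 library, A-443654 ranked 3rd for increased microexons and 6th for decreased cassette exons. The study chose compounds for large microexon effects, some as activators and others as inhibitors, so the microexon rank follows in part from that choice. The pair of changes was shared: compounds coded Maybridge_21_O19, Maybridge_98_D13 and Maybridge_121_K16 had 69, 54 and 60 microexons increased. They had 341, 261 and 251 cassette exons increased and 877, 1031 and 876 decreased. The compound coded OICR.KI.2016_2_B15 had 66 microexons increased, with 402 cassette exons increased and 222 decreased.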

How the data were processed

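PolyA+ RNA-seq of N2A cells was analysed for A-443654 (1 library) and DMSO (3). The labels give a library code, and the compound name and dose were taken from the study's tables. The deposited PSI values, in percent, were made by the authors with vast-tools from reads on exon junctions, with inclusion and exclusion reads per library, on mm9. For expression, RPKM had been computed by the authors with Salmon on GENCODE vM21 transcripts, summed per gene with tximport, as 1 deposited value per condition with replicates merged (the Salmon version in the submitters' processing notes is 0.10.2, and the methods give another). The authors' fold changes and p-values (from edgeR) and pooled splicing scores were not used, and 0 value columns were left without a sample.

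Exons needed sufficient coverage and junction balance, alternative sites sufficient coverage only, and introns a minimum of 15 reads with a balance p over 0.05. Microexons for which vast-tools gave no balance score passed on coverage alone. An event was tested when the treated library and at least 2 DMSO libraries passed. PSI was averaged over the DMSO libraries that passed. Posterior probabilities used 2000 draws per library from beta distributions of the reads plus 1, pooled over libraries (numpy 2.4.6). The rule was tested on simulated reads. Wilson intervals are at 95% and cover counting error only. Gene ratios are log2 of RPKM plus 0.5, which understates the change of low genes, counted above 2-fold with over 5 RPKM in either condition.

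Exons were matched to transcripts by gene name, exon length and flanking intron lengths (396 of 604 microexons and 55372 of 57549 cassette exons by both introns). Gene names are as in the tables, some of them older symbols. Members and lists were chosen with earlier results of these data known. Named events are the largest changes of each type, at most 1 per gene, with all DMSO libraries passing and the treated PSI outside their range. Named genes are the 12 largest rises and falls, above 0 in both conditions, without clones, predicted genes, pseudogenes and most small RNAs, and list members past 2-fold. Named long exons, Hnrnpa2b1, Hnrnpd, Pigq and Map4k2 exons and list members under 2-fold were chosen after their values were seen. The alternatives left out each DMSO library, used stricter limits, other filters and pseudocounts, and centred ratios.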

Additional observations from a re-analysis of the deposited data

How the results depend on the processing

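No paired analysis was possible because A-443654 has 1 library, so that no more than 1 pair could be formed with the DMSO libraries. Of 12 named introns, 9 rest on fewer than 70 reads in the treated library. Leaving out any DMSO library raised the count of decreased introns by over 1.5 times. Of the calls, 58 of 66 microexons, 909 of 1136 cassette exons and 246 of 347 introns held whichever DMSO library was left out. Over 93 named events, 277 of 279 differences without 1 DMSO library moved by less than 1 SD of DMSO. Leaving out 1 of 3 libraries moves their mean by less than their SD, so this count is no check. No called event changed sign, which was fixed for events named because the treated PSI lay outside the DMSO range. Uncalled exons of Mgrn1, Trappc9 and Asph did change sign, for example Mgrn1 from 1.21 to -0.3 PSI without DMSO B.

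With at least 15 PSI the counts were 1 decreased microexon, 164 increased and 396 decreased cassette exons, 125 increased and 76 decreased introns, 133 and 132 alternative 3' sites, 113 and 118 alternative 5' sites and 0 decreased exons over 500 nt. The DMSO libraries then had at most 117 decreased cassette exons, NVP-AEW-541 had 26 increased microexons and 62 decreased cassette exons, and Trametinib 30 and 49. With a posterior above 0.99 there were 76 increased and 48 decreased introns, 152 and 151 alternative 3' sites and 129 and 130 alternative 5' sites, at most 3 increased microexons in a DMSO library, and 133 and 82 decreased cassette exons for NVP-AEW-541 and Trametinib. Microexons of up to 15 nt gave 27 increased. Without 1 DMSO library, decreased introns ranged from 189 to 214, decreased microexons from 3 to 7, and exons over 500 nt (an alternative chosen after seeing the data) from 18 to 19 increased, with 3 decreased. Genes over 1 RPKM gave 434 higher and 260 lower, and no filter 561 and 387. Centring moved log2 ratios by 0.04. The cause of these shifts was not tested. All other counts under the alternatives run stayed within 1.5 times of their value in the report.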
